A study of Homo sapiens with 3 samples.

Results

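The genes that build thyroid identity and thyroid hormone were examined in Cal62, a human thyroid tumor cell line, with and without ADAR1 silencing. The set held 9 genes of the 58333 in the deposited table. They were chosen by symbol, and each symbol matched 1 Ensembl identifier. They were the transcription factors PAX8, NKX2-1, FOXE1 and HHEX, the hormone precursor TG, the TSH receptor TSHR, the iodide transporter SLC5A5, the deiodinase DIO2 and the oxidase DUOX2. ADAR1 (gene symbol ADAR) is the enzyme that converts adenosine to inosine in RNA. Poly(A)+ RNA was sequenced from 3 groups of Cal62 cells, which all received an siRNA with Lipofectamine RNAimax: siControl (the Silencer Select Negative Control #1), siADAR1 #1 and siADAR1 #2. The cells were kept in DMEM with 10% FBS, and the time between transfection and RNA isolation for these libraries is not given in the sources used here. There were 2 libraries per group, taken as the 2 independent biological replicates of the study's methods, since the labels name 1 sample per group and the table holds 2 columns for each. All libraries came from 1 cell line, so the p-values measure the spread between cultures of that line.

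Follicular cells of the thyroid make thyroid hormone on a scaffold of thyroglobulin. During development, the joint expression of PAX8, NKX2-1, FOXE1 and HHEX marks the thyroid bud, and in the mature gland these factors act at the promoters of the hormone synthesis genes. TSH, acting through TSHR and cAMP, drives iodide uptake, thyroglobulin production and hormone release. In tumors of follicular origin, and above all in poorly differentiated ones, the hormone synthesis genes are commonly low while PAX8 is often retained.

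Sequence at or near the RefSeq start is shown for PAX8, DIO2 and NKX2-1, 3 of the 9 genes on which results turn. PAX8 was the most abundant of the 9 and fell with siADAR1 #2. DIO2 differed between the siRNAs, and NKX2-1 had no read in any library. The sequences are from RefSeq (GRCh38.p14), written 5′ to 3′ on the gene's strand. For PAX8 and DIO2 they are the 250 bases before the RefSeq start, at chr2:113278922-113279171 and chr14:80212179-80212428, both on the minus strand. For NKX2-1 a stretch of 30 bases shortly after the start is given, at chr14:36519517-36519546, minus strand. The capitals mark CCAAT boxes in PAX8, a cAMP response element (TGACGTCA) and a TATA box (TATAAA) in DIO2, and in NKX2-1 the letters CACTCAAG, known as a core of the NKX2-1 binding site, with a CCAAT box directly behind them.
PAX8: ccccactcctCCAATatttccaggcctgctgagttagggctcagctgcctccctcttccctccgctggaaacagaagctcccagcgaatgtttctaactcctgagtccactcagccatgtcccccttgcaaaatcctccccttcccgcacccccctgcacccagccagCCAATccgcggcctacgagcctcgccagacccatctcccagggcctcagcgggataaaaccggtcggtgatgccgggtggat
DIO2: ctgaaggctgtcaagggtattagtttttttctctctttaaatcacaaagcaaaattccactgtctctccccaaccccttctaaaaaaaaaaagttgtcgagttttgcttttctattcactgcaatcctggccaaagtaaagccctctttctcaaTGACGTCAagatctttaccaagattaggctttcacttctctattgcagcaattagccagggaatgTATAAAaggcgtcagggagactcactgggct
NKX2-1: ccccgagcctcCACTCAAGCCAATtaagga

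The RefSeq table held windows of 300 bases, 250 before and 50 after the start, for 8 of the 9 genes. They were searched on both strands for 4 motifs, which did not overlap each other. The cAMP response element was found in DIO2, with its first base at -96 from the start, and in 1.85% of the 35116 windows of the table. CACTCAAG was found in NKX2-1 and in 0.73% of all windows. TATAAA was found in DIO2, at -31, and in DUOX2, at -127 on the opposite strand, and in 11.53% of all windows. CCAAT was found in PAX8, at -240 and -82, and also in HHEX, NKX2-1 and SLC5A5, against 34.61% of all windows. These matches describe the letters in the windows and say nothing of whether a factor was bound in these cells.

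The recovered reads per library added up to between 30114840 and 50029763, with a median of 43005907. Values are given as reads, or as normalized counts, which are reads divided by the authors' factor for the size of each library. A count of 0 allows for up to 3 reads, which correspond to 2.81 to 4.39 normalized counts across the 6 libraries. The targeted gene, ADAR, had 10906 and 11701 normalized counts in siControl cells, 1328 and 2246 with siADAR1 #1, and 1663 and 2928 with siADAR1 #2. It thus lay below both siControl libraries in each silenced library, with a log2FC of -2.71 (SE 0.305, adjusted p = 0.00356, limma) for siADAR1 #1 and -2.35 (SE 0.305, adjusted p = 0.00153) for siADAR1 #2. The siRNAs did not differ detectably from each other in ADAR, by 0.35 on the log2 scale (adjusted p = 0.406).

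In siControl cells, the lineage genes ranged from well above the median of expressed genes to no read at all. Levels between genes were compared as normalized counts per kilobase of exon, against 17101 protein-coding genes with at least 1 read in siControl, whose median was 124. PAX8 had 2021 ± 186 per kilobase (SD, n = 2) and lay above 94.9% of these genes. HHEX followed with 798 ± 9.76, above 84.8%. FOXE1, at 57.3 ± 19.9, was above 41.1%, and TSHR, at 7.27 ± 0.189, was above 26.3%. SLC5A5 had 2.15 ± 0.302 per kilobase, DIO2 2.12 ± 2.21, TG 1.52 ± 2.14 and DUOX2 0.757 ± 0.273, and each of these 4 overlapped with its neighbour in the order, although SLC5A5 and DUOX2 did not overlap with each other. NKX2-1 was last, with 0 in both libraries. PAX8, HHEX, FOXE1 and TSHR did not overlap with any other gene of the set in siControl. The order at the top was not the same with siADAR1 #2, where PAX8 had 345 and 744 per kilobase and HHEX 743 and 702, so that their ranges overlapped.

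**Figure D1:**
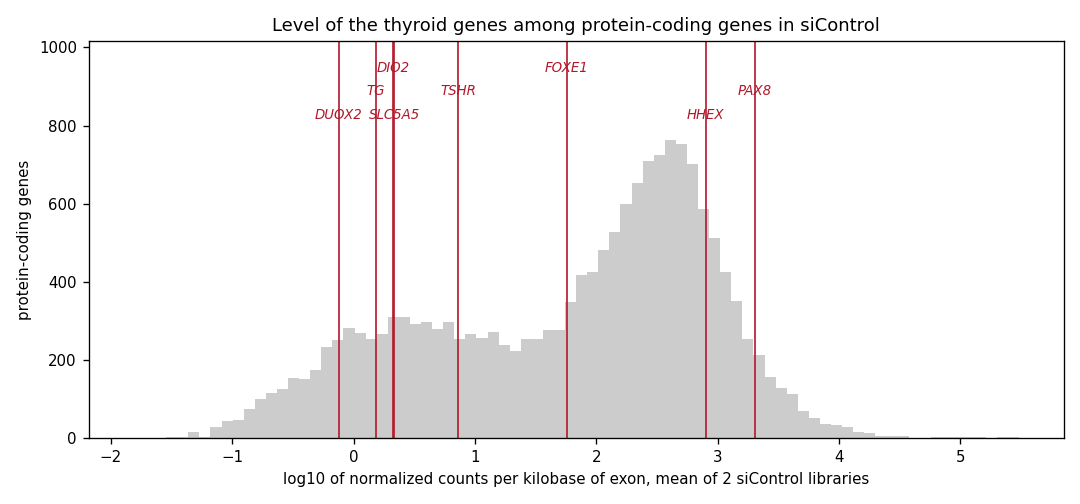
The histogram shows the protein-coding genes by their level in siControl, in normalized counts per kilobase of exon on a log10 axis (mean of 2 libraries), and the red lines mark the 8 genes of the set that had a read. PAX8 and HHEX lie above the median of 124, FOXE1 lies below it, and TSHR, SLC5A5, DIO2, TG and DUOX2 lie in the lower tail, while NKX2-1 is at 0 and is not drawn.

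Silence in siControl, taken as 3 reads or fewer in each library, was found for 1 of the 9 genes, NKX2-1. With a limit of fewer than 10 reads in each siControl library, 3 genes counted as silent, NKX2-1, SLC5A5 and DUOX2. TG was at 0 reads in siControl replicate 2 and at 31 reads in replicate 1, so that without replicate 1 the number of silent genes was 2. Genes entered the tests with a mean of at least 10 normalized counts over the 6 libraries, which 20247 genes and 7 of the 9 reached. NKX2-1 and SLC5A5 were left out by this filter.

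Each siRNA was compared with siControl in 1 limma fit over all 6 libraries, so that the comparisons share the siControl libraries. A gene was called changed with a Benjamini-Hochberg adjusted p under 0.05 together with a log2FC above 0.5 or below -0.5. With siADAR1 #1, 0 of the 7 tested genes were called, where 17.4% of the 20247 genes were. At an unadjusted p under 0.05, limma gave 2 of the 7, FOXE1 and HHEX, against 33.2% of all genes, and voom on the reads called 0. With the replicate number as a block, 1 of the 7, FOXE1, was called with siADAR1 #1, against 20.2% of all genes. With siADAR1 #2, 2 of the 7 were called, PAX8 and FOXE1, both downregulated, against 27.5% of all genes, so that the share called lay near the background. The median log2FC of the 7 was -0.26 with siADAR1 #1 and 0.42 with siADAR1 #2, where over all genes it was -0.029 and -0.016. Between siADAR1 #2 and siADAR1 #1, 3 of the 7 differed, PAX8, TSHR and DIO2, against 33.7% of all genes. With the 4 silenced libraries taken as 1 group against siControl, 0 of the 7 and 0% of all genes were called by limma. In that comparison 1 of the 7, FOXE1, and 14.2% of all genes had an unadjusted p under 0.05, and voom called 0 of the 7. When the siRNAs were kept as separate groups and their average change was tested, PAX8 (log2FC -1.12, adjusted p = 0.0314, limma) and FOXE1 (log2FC -1.04, adjusted p = 0.0325) were called, 2 of the 7 against 17.8% of all genes.

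**Figure D2:**
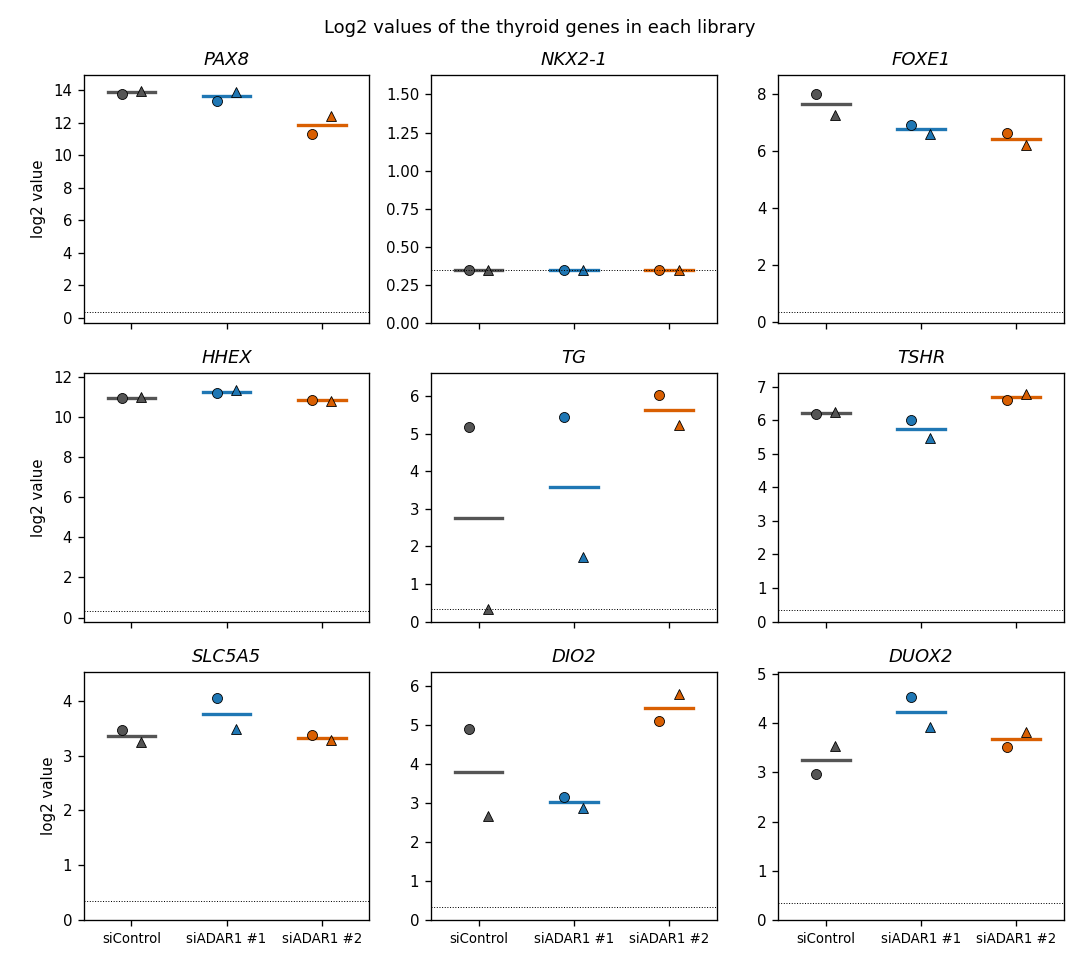
Each panel gives 1 gene, with its deposited log2 value in the 6 libraries on the vertical axis, whose range differs between panels. Circles are replicate 1, triangles replicate 2 and bars the mean of both, and the dotted line is the log2 value of 0 reads. The siADAR1 #2 points of PAX8 lie below all others, those of DIO2 and TSHR lie above all others, and NKX2-1 sits on the dotted line throughout.

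PAX8, the paired-box factor that is needed for follicular cells to form, lies on chromosome 2 at 113215997-113278921, minus strand (ENSG00000125618, GRCh38, GENCODE 44). It had 12789 and 15557 reads in siControl cells, 10984 and 12000 with siADAR1 #1, and 2242 and 3744 with siADAR1 #2. As normalized counts, these were 13927 and 15868 in siControl cells, 10272 and 15074 with siADAR1 #1, and 2542 and 5484 with siADAR1 #2. The siADAR1 #2 libraries were far below all other libraries, while those of siADAR1 #1 overlapped with siControl.
PAX8 was downregulated with siADAR1 #2, with a log2FC of -1.99 (SE 0.335, 95% interval -2.77 to -1.21, adjusted p = 0.00411, limma), which is 0.251 times the siControl level. Only 1.65% of the genes tested fell further. With siADAR1 #1 the log2FC was -0.26 (SE 0.335, 95% interval -1.04 to 0.52, adjusted p = 0.646). The difference between the siRNAs, siADAR1 #2 minus siADAR1 #1, was itself called, at -1.74 (95% interval -2.52 to -0.96, adjusted p = 0.00573). The fall with siADAR1 #2 and the difference between the siRNAs were called in all 18 other settings, with a log2FC from -2.55 to -1.44 for the former and from -2.29 to -1.18 for the latter. The lowest size of the fall, -1.44, was found without siADAR1 #2 replicate 1.

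The sequence around PAX8 holds other transcribed genes. PAX8-AS1 is a noncoding gene on the opposite strand whose exons overlap those of PAX8, and whether reads were counted by strand is not given in the sources used here, so reads of PAX8 and PAX8-AS1 cannot be fully told apart. PAX8-AS1 had 1478 and 2563 reads in siControl cells, 1648 and 1836 with siADAR1 #1, and 617 and 790 with siADAR1 #2. It was lower in both siADAR1 #2 libraries than elsewhere, with a log2FC of -1.19 against siControl (SE 0.32, adjusted p = 0.0271, limma) and of -0.12 with siADAR1 #1 (adjusted p = 0.832). The call was lost without siControl replicate 2 (adjusted p = 0.173) and without siADAR1 #2 replicate 1 (adjusted p = 0.155). PSD4, the nearest gene at lower coordinates, lies 6601 bases away and was also downregulated with siADAR1 #2 (log2FC -1.68, SE 0.414, adjusted p = 0.0192), a call that was lost without either siControl library (adjusted p = 0.105 without replicate 1 and 0.101 without replicate 2) and without siADAR1 #2 replicate 1 (adjusted p = 0.0733).

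NKX2-1, the homeodomain factor that acts with PAX8 at the TG promoter, lies on chromosome 14 at 36516392-36521149, minus strand (ENSG00000136352). It had 0 reads in each of the 6 libraries. The overlapping antisense gene NKX2-1-AS1 also had 0 reads throughout. NKX2-4, the closest relative of NKX2-1, had 11 to 16 reads per library and was not called with either siRNA. The stretch of NKX2-1 shown above lies after the RefSeq start, which is itself inside the longer gene model. It comes from a gene with no transcript detectable at this depth in any of the groups.

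FOXE1, the forkhead factor whose mutations cause thyroid agenesis, lies on chromosome 9 at 97853226-97856717, plus strand (ENSG00000178919). It had 229 and 148 reads in siControl cells, 126 and 75 with siADAR1 #1, and 85 and 48 with siADAR1 #2. As normalized counts these were 249 and 151, 118 and 94.2, and 96.4 and 70.3. Both siControl libraries lay above all 4 silenced libraries, and the silenced groups overlapped.
FOXE1 was downregulated with siADAR1 #2, with a log2FC of -1.21 (SE 0.313, 95% interval -1.94 to -0.48, adjusted p = 0.0231, limma) or 0.432 times siControl. The log2FC with siADAR1 #1 was -0.87 (95% interval -1.595 to -0.137, adjusted p = 0.0968), short of the threshold, and it was called with the replicate number as a block (adjusted p = 0.0363, limma). The siRNAs differed by -0.35 (95% interval -1.08 to 0.38, adjusted p = 0.428), which leaves room for a difference in either direction. The call with siADAR1 #2 rested on several single libraries. Without siControl replicate 1, the higher of the siControl libraries, the log2FC was -0.855 (adjusted p = 0.146), without siADAR1 #2 replicate 1 it was -1.43 (adjusted p = 0.0503), and without siADAR1 #2 replicate 2 it was -0.99 (adjusted p = 0.11). PTCSC2, a noncoding gene that lies 146 bases from FOXE1 on the other strand, had between 15 and 73 reads per library and was not called.

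HHEX, a homeobox factor of the foregut that the thyroid bud needs to persist, lies on chromosome 10 at 92689955-92695647, plus strand (ENSG00000152804). It had 1994 and 2029 normalized counts in siControl cells, 2340 and 2580 with siADAR1 #1, and 1873 and 1769 with siADAR1 #2. The siADAR1 #1 libraries were above siControl and the siADAR1 #2 libraries below it, by small margins. The log2FC was 0.29 with siADAR1 #1 (95% interval 0.009 to 0.568, adjusted p = 0.139, limma) and -0.14 with siADAR1 #2 (95% interval -0.42 to 0.14, adjusted p = 0.414), and the latter was 0.002 after quantile normalization. Between the siRNAs HHEX differed by -0.43 (adjusted p = 0.0251), which is under the limit of 0.5 and was therefore not called. With median-centred libraries this difference was -0.54 (adjusted p = 0.0103) and without siADAR1 #1 replicate 1 it was -0.50 (adjusted p = 0.0402), both just past the limit.

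**Figure D3:**
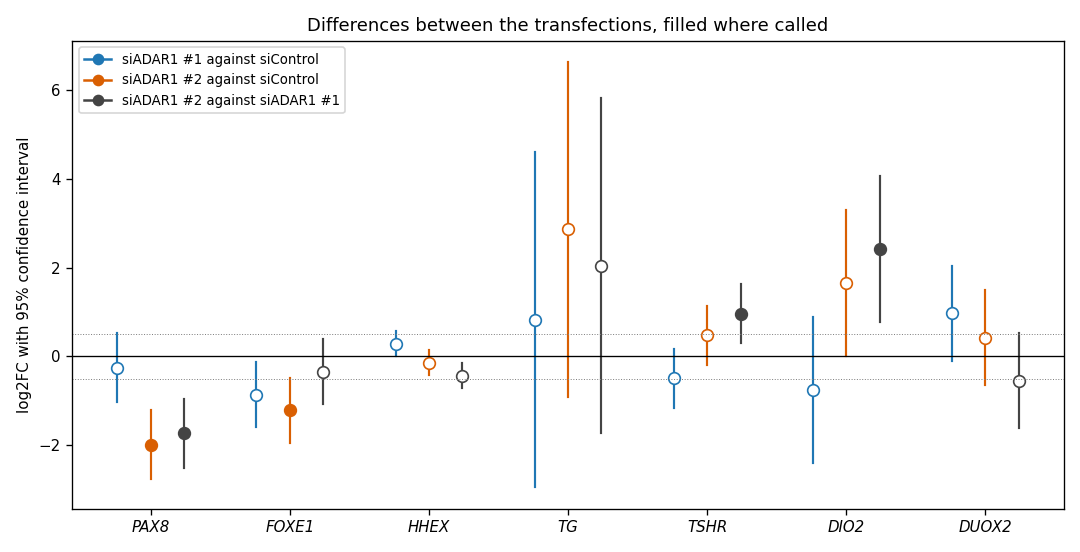
Points are the log2FC of the 7 tested genes in the comparisons of siADAR1 #1 and siADAR1 #2 with siControl and with each other, with 95% intervals from limma. Filled points were called changed, and the dotted lines mark a log2FC of 0.5 in either direction. PAX8 and FOXE1 are filled for siADAR1 #2 against siControl, and PAX8, TSHR and DIO2 for siADAR1 #2 against siADAR1 #1, while the intervals of TG are the widest.

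TG encodes thyroglobulin, the protein on whose tyrosines thyroid hormone is made, and lies on chromosome 8 at 132866958-133134903, plus strand (ENSG00000042832). It had 31 and 0 reads in siControl cells, 44 and 1 with siADAR1 #1, and 55 and 24 with siADAR1 #2. Replicates of 1 group differed as much as the groups did, and only siADAR1 #2 had reads well above the floor in both libraries. The log2FC was 2.86 with siADAR1 #2 (SE 1.62, 95% interval -0.91 to 6.64, adjusted p = 0.226, limma) and 0.82 with siADAR1 #1 (95% interval -2.95 to 4.597, adjusted p = 0.768). These intervals leave the direction unresolved, although with the replicate number as a block TG was called higher with siADAR1 #2 (adjusted p = 0.035, limma). With siADAR1 #1 the sign turned when siControl replicate 2 (log2FC -1.59) or siADAR1 #1 replicate 1 (log2FC -1.04) was left out. SLA, a gene within TG on the other strand, had at most 1 read in a library.

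TSHR, the receptor through which TSH acts, lies on chromosome 14 at 80954989-81146306, plus strand (ENSG00000165409). It had 65 and 72 reads in siControl cells, 66 and 33 with siADAR1 #1, and 84 and 73 with siADAR1 #2. As normalized counts these were 70.8 and 73.4, 61.7 and 41.5, and 95.3 and 107. The siADAR1 #1 libraries lay below siControl and the siADAR1 #2 libraries above it.
Against siControl, TSHR was not called with siADAR1 #1 (log2FC -0.49, 95% interval -1.15 to 0.17, adjusted p = 0.277, limma) or with siADAR1 #2 (log2FC 0.47, 95% interval -0.19 to 1.14, adjusted p = 0.256). Between the siRNAs it was called, 0.96 higher with siADAR1 #2 on the log2 scale (SE 0.285, 95% interval 0.298 to 1.62, adjusted p = 0.0322). This call was kept in 9 of 18 other settings, and the adjusted p ranged from 0.0295 to 0.141. It was lost without siControl replicate 1 (adjusted p = 0.0551) or replicate 2 (0.0567), without siADAR1 #1 replicate 2 (0.141), and without siADAR1 #2 replicate 1 (0.0916) or replicate 2 (0.132). CEP128, a centrosomal gene that overlaps TSHR on the other strand with no shared exon, moved differently and was downregulated with siADAR1 #1 (log2FC -1.34, adjusted p = 0.00705) and siADAR1 #2 (log2FC -1.75, adjusted p = 0.00113). Its call with siADAR1 #1 was lost without siControl replicate 1 (adjusted p = 0.064) or replicate 2 (adjusted p = 0.0556).

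SLC5A5, the sodium/iodide symporter that carries iodide into the follicular cell, lies on chromosome 19 at 17871945-17895174, plus strand (ENSG00000105641). It had 8 and 7 reads in siControl cells, 15 and 7 with siADAR1 #1, and 7 and 5 with siADAR1 #2. The libraries had between 5 and 15 reads, with siADAR1 #1 replicate 1 the highest. Its mean of 8.99 normalized counts over the 6 libraries was below the filter, so it was not tested in the comparisons given here, and it was not called in the settings with a lower filter that admitted it.

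DIO2, the enzyme that turns thyroxine into the active triiodothyronine, lies on chromosome 14 at 80197526-80387757, minus strand (ENSG00000211448). The RefSeq start used for its promoter lies inside this longer gene model. DIO2 had 25 and 4 reads in siControl cells, 7 and 4 with siADAR1 #1, and 28 and 36 with siADAR1 #2. As normalized counts these were 27.2 and 4.08, 6.55 and 5.02, and 31.8 and 52.7. Both siADAR1 #2 libraries were above all others, and siControl replicate 1 stood far above siControl replicate 2.
DIO2 was called between the siRNAs, with 2.43 more on the log2 scale in siADAR1 #2 than in siADAR1 #1 (SE 0.707, 95% interval 0.782 to 4.07, adjusted p = 0.0301, limma). Against siControl the log2FC was 1.66 with siADAR1 #2 (95% interval 0.017 to 3.31, adjusted p = 0.117) and -0.77 with siADAR1 #1 (95% interval -2.41 to 0.88, adjusted p = 0.501). Without siControl replicate 1, DIO2 was called higher with siADAR1 #2 (log2FC 2.77, adjusted p = 0.0276), and its log2FC with siADAR1 #1 was 0.345, of the opposite sign. The difference between the siRNAs was kept in 11 of 17 other settings. It was not called without siADAR1 #1 replicate 1 (adjusted p = 0.0819) or replicate 2 (0.1), or without siADAR1 #2 replicate 1 (0.0665) or replicate 2 (0.131). DIO2-AS1, whose exons overlap DIO2 on the other strand, had at most 2 reads in a library.

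DUOX2, the oxidase that supplies hydrogen peroxide for the iodination of thyroglobulin, lies on chromosome 15 at 45092650-45114172, minus strand (ENSG00000140279). It had 5 and 9 reads in siControl cells, 22 and 10 with siADAR1 #1, and 8 and 8 with siADAR1 #2. The siADAR1 #1 libraries were the highest, at 20.6 and 12.6 normalized counts against 5.44 and 9.18 in siControl. The log2FC was 0.97 with siADAR1 #1 (95% interval -0.105 to 2.04, adjusted p = 0.191, limma) and 0.42 with siADAR1 #2 (95% interval -0.65 to 1.499, adjusted p = 0.536), so no change was detectable at this depth. DUOXA2, its maturation factor, lies 154 bases away and had between 0 and 2 reads per library.

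Of 10 other genes of hormone synthesis, 6 passed the filter, and 2 had at most 3 reads in each siControl library. With siADAR1 #1, limma called 0 of them, 3 had an unadjusted p under 0.05, and voom called 2, where 17.4%, 33.2% and 18.4% of all genes were. With the replicate number as a block, limma called 2, ANO1 and DUOXA1, against 20.2% of all genes. With siADAR1 #2, 1 was downregulated, against 27.5% of all genes called. With the block 2 were called there, against 30% of all genes. The median log2FC of the 6 was 0.15 with siADAR1 #1 and 0.09 with siADAR1 #2. The gene called was ANO1, a chloride channel of the apical membrane that lets iodide pass into the follicle lumen. ANO1 had 724 and 897 reads in siControl cells, 385 and 388 with siADAR1 #1, and 21 and 29 with siADAR1 #2. It was the lowest in both siADAR1 #2 libraries, with a log2FC of -4.63 (SE 0.295, adjusted p = 0.000346, limma), and was called in all 18 other settings. With siADAR1 #1 the log2FC of ANO1 was -1.01 (SE 0.295), at the threshold (adjusted p = 0.05) and not called, while with the replicate block it was (adjusted p = 0.0139). DUOXA1, the maturation factor of DUOX1, had a log2FC of 1.77 with siADAR1 #1 (adjusted p = 0.0513) and 1.59 with siADAR1 #2 (adjusted p = 0.053), and with the replicate block the adjusted p was 0.0401 and 0.0434.

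Among 9 genes of hormone transport, deiodination and receptors, 5 were tested and 2 were downregulated with siADAR1 #1, against 17.4% of all genes called, with a median log2FC of -0.42. With siADAR1 #2, limma and voom each called 0, 2 had an unadjusted p under 0.05 in limma, and the median was -0.04, where 27.5% of all genes were called and 41.6% had such a p. With the replicate block 1 was called with siADAR1 #2, against 30% of all genes. It was KLF9, a target gene of the hormone receptors (log2FC 0.85, adjusted p = 0.0253, limma). The block also called KLF9 with siADAR1 #1 (log2FC 0.79, adjusted p = 0.0453), so that 3 were called there, against 20.2% of all genes. THRA, the thyroid hormone receptor alpha, had 911 and 878 normalized counts in siControl cells, 237 and 338 with siADAR1 #1, and 768 and 981 with siADAR1 #2. It was low in the siADAR1 #1 libraries alone, with a log2FC of -1.65 (SE 0.213, adjusted p = 0.00441, limma), and it was higher with siADAR1 #2 than with siADAR1 #1 (log2FC 1.61, adjusted p = 0.00124). SLC16A10, an amino acid and hormone transporter, was also downregulated with siADAR1 #1 (log2FC -0.99, adjusted p = 0.0375). Its normalized counts were 122 and 136 in siControl cells, 55.2 and 72.9 with siADAR1 #1, and 69.2 and 82 with siADAR1 #2. It thus lay below both siControl libraries with either siRNA. Without siControl replicate 1 both calls were lost, with an adjusted p of 0.0562 for THRA and 0.128 for SLC16A10. That of SLC16A10 was also lost without siControl replicate 2 (0.16), without siADAR1 #1 replicate 1 (0.179), and without siADAR1 #2 replicate 1 (0.0544) or replicate 2 (0.0557).

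All 13 genes for folding, uptake and proteolysis of thyroglobulin were tested, and these are genes that most cells use. With siADAR1 #1, 1 was upregulated, and with siADAR1 #2, 2 were upregulated and 2 downregulated, with medians of 0.05 and 0.17, where 17.4% and 27.5% of all genes were called. The lysosomal proteases that release hormone from thyroglobulin split by direction with siADAR1 #2. CTSD was upregulated, from 8347 and 8386 normalized counts in siControl to 20096 and 19024 (log2FC 1.22, SE 0.097, adjusted p = 0.000413, limma). CTSB (log2FC -1.31, SE 0.146, adjusted p = 0.00092) and CTSL (log2FC -1.38, SE 0.23, adjusted p = 0.00397) were downregulated. These 3 calls were kept in all 18 other settings. PDIA4, a protein disulfide isomerase of the endoplasmic reticulum, was upregulated with siADAR1 #1 (log2FC 0.62, adjusted p = 0.029) and siADAR1 #2 (log2FC 0.58, adjusted p = 0.0249). Its calls were lost without siControl replicate 1 (adjusted p = 0.161 for siADAR1 #1 and 0.144 for siADAR1 #2) or replicate 2 (0.0758 and 0.0522), that with siADAR1 #1 without its replicate 2 (0.108), and that with siADAR1 #2 without its replicate 1 (0.159).

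Of 12 genes of TSH signaling, from the hormone subunit to cAMP and protein kinase A, 10 were tested. With siADAR1 #1, 3 were downregulated and 1 upregulated (median log2FC -0.29), and with siADAR1 #2, 2 were downregulated (median -0.21), where 17.4% and 27.5% of all genes were called. With the replicate block 4 were called with siADAR1 #2, among them ADCY6 (adjusted p = 0.0301, limma) and PDE4D (adjusted p = 0.0153). The block called 30% of all genes there. The genes that fell with siADAR1 #2 were the catalytic subunits of protein kinase A. PRKACA went from 6829 and 6085 normalized counts in siControl to 1467 and 1992 (log2FC -1.91, SE 0.161, adjusted p = 0.000458, limma). PRKACB went from 1435 and 1063 to 137 and 256 (log2FC -2.70, SE 0.307, adjusted p = 0.000974). Neither was called with siADAR1 #1, and each differed between the siRNAs (log2FC -1.60 for PRKACA, adjusted p = 0.000495, and -2.52 for PRKACB, adjusted p = 0.000883). With siADAR1 #1, the adenylyl cyclase ADCY9 was downregulated (log2FC -1.02, adjusted p = 0.00557) and the cAMP phosphodiesterase PDE4D upregulated (log2FC 1.49, adjusted p = 0.0215). Without siControl replicate 1 the adjusted p was 0.0602 for ADCY9 and 0.0592 for PDE4D, and PDE4D was also lost without siControl replicate 2 (0.125) or siADAR1 #1 replicate 1 (0.111). The other adenylyl cyclases that fell with siADAR1 #1 were ADCY3 (log2FC -0.92, adjusted p = 0.022) and ADCY6 (log2FC -0.80, adjusted p = 0.0318), and they were not called without siControl replicate 1 (0.146 and 0.0822) or replicate 2 (0.0752 and 0.172) or without siADAR1 #1 replicate 1 (0.0789 and 0.147).

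**Figure D4:**
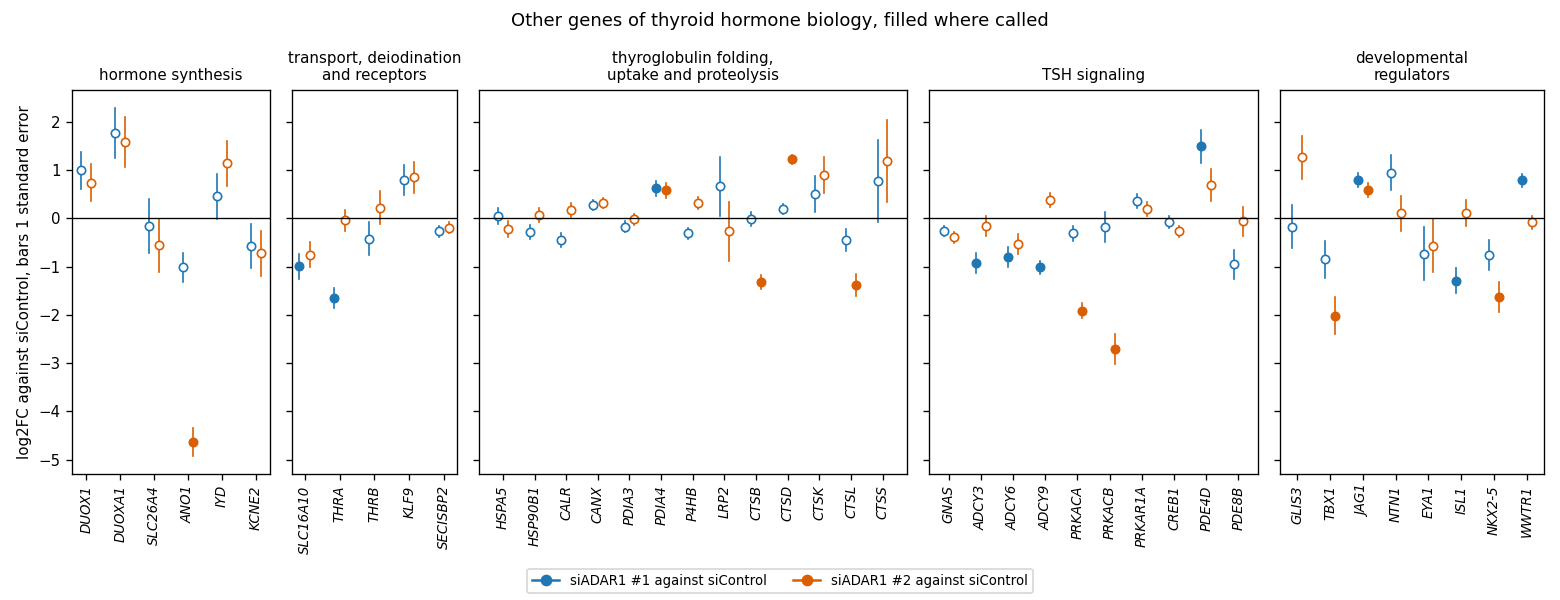
Points are the log2FC of the tested genes of 5 lists around the 9 genes, for siADAR1 #1 and siADAR1 #2 against siControl, with bars of 1 SE from limma and filled points for genes called changed. ANO1 at -4.63 and PRKACB at -2.70 with siADAR1 #2 are the lowest filled points, and in 3 of the 5 lists filled points lie on both sides of 0.

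All 8 further regulators of thyroid development were tested, of which 1 was downregulated and 2 upregulated with siADAR1 #1 (median log2FC -0.45), and 2 were downregulated and 1 upregulated with siADAR1 #2 (median 0.01), where 17.4% and 27.5% of all genes were called. With the replicate block 4 were called with each siRNA, against 20.2% of all genes for siADAR1 #1 and 30% for siADAR1 #2. JAG1, a Notch ligand, was upregulated with siADAR1 #1 (log2FC 0.80, adjusted p = 0.0106, limma) and siADAR1 #2 (log2FC 0.59, adjusted p = 0.0173). WWTR1, also known as TAZ and a coactivator of PAX8 and NKX2-1, was upregulated with siADAR1 #1 (log2FC 0.78, SE 0.132, adjusted p = 0.00929) and differed between the siRNAs by -0.87 (adjusted p = 0.0021). The developmental factors NKX2-5 (log2FC -1.63, adjusted p = 0.00663) and TBX1 (log2FC -2.02, adjusted p = 0.00699) were downregulated with siADAR1 #2. With siADAR1 #1 both also lay below the siControl libraries but were not called, NKX2-5 at -0.753 (adjusted p = 0.1335) and TBX1 at -0.85 (adjusted p = 0.1715). The factor ISL1 was downregulated with siADAR1 #1 (log2FC -1.29, adjusted p = 0.0158), but not without siControl replicate 1 (0.104) or siADAR1 #1 replicate 1 (0.0803). Without siControl replicate 1 the adjusted p was 0.0781 and 0.103 for JAG1 with siADAR1 #1 and #2, 0.0701 for WWTR1, 0.0617 for NKX2-5 and 0.0682 for TBX1, so that each call was lost. Without siADAR1 #1 replicate 1 it was 0.0547 for JAG1 and 0.051 for WWTR1 with siADAR1 #1, and for JAG1 with siADAR1 #2 it was 0.0871 without siADAR1 #2 replicate 1 and 0.0688 without replicate 2. Of 11 paralogs of the members, 3 were tested, and 5 had at most 3 reads in each siControl library. With siADAR1 #1, limma called 0 of the 3, and 2 had an unadjusted p under 0.05, against 33.2% of all genes. Voom called 1, against 18.4% of all genes. With the replicate block 1 was called, SLC5A6 (adjusted p = 0.0224, limma), against 20.2% of all genes. With siADAR1 #2, 1 of the 3 was downregulated, against 27.5% of all genes called. It was SLC5A6, the vitamin transporter related to SLC5A5 (log2FC -1.18, adjusted p = 0.00355, limma).

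The label of thyroid cells was set against 6 markers of follicular cells, PAX8, NKX2-1, FOXE1, TG, TSHR and SLC5A5. Of these, NKX2-1 was at 0 reads, TG was at 0 in 1 siControl library, and PAX8 made up most of their summed normalized counts, which were 14289.5 and 16099 in siControl cells, 10506 and 15219 with siADAR1 #1, and 2804 and 5704 with siADAR1 #2. In these bulk samples, fewer cells that express a gene and less RNA of it per cell cannot be told apart. The 8 markers of C cells and parathyroid summed to between 73 and 144.5, with CALCA at 0 or 1 read and PTH at 0. CALCB (10 and 12 reads in siControl), CHGB (21 and 32) and CASR (33 and 51) passed the filter. CALCB had 27 and 44 reads with siADAR1 #1 (log2FC 1.52, adjusted p = 0.0584, limma) and 6 and 6 with siADAR1 #2. The replicate block called it with siADAR1 #1 (adjusted p = 0.0447, limma). Between the siRNAs CALCB was called (log2FC -1.98), where 33.7% of all genes were. The normalized counts of the 5 markers of leukocytes and endothelium summed to 310 and 456 in siControl cells, 469 and 673 with siADAR1 #1, and 849 and 1608 with siADAR1 #2. CD68, a lysosomal protein, gave most of this sum. It was the 1 marker called of 3 tested with siADAR1 #2 (log2FC 1.80, adjusted p = 0.00975, limma), against 27.5% of all genes. Without siControl replicate 1, CD68 was not called (log2FC 1.415). PTPRC, the defining marker of leukocytes, had 0 to 5 reads in every library. The 6 epithelial markers summed to between 104548 and 301310. With siADAR1 #1, 1 of them was called higher (KRT7), against 17.4% of all genes called. With siADAR1 #2, 1 was called higher (KRT19) and 2 lower (KRT18 and KRT7), against 27.5% of all genes. The KRT7 calls (log2FC 1.01 with siADAR1 #1, adjusted p = 0.0484, and -0.92 with siADAR1 #2, adjusted p = 0.047) were lost in 9 and 10 of 18 other settings, among them siControl replicate 1 left out (adjusted p = 0.0908 and 0.264). The sum of the 3 mesenchymal markers was lower in each silenced library, at 78846 to 152930 against 269905 and 281768 in siControl. VIM was called lower with siADAR1 #1 (log2FC -3.32, adjusted p = 0.00535) and FN1 with siADAR1 #2 (log2FC -1.82, adjusted p = 0.0164), and without siControl replicate 1 the adjusted p was 0.0626 and 0.0836. CDH2 was not called with siADAR1 #1 (log2FC -0.26) or siADAR1 #2 (log2FC -0.08). FN1 also lost its call without siControl replicate 2 (adjusted p = 0.103). With siADAR1 #1, FN1 was not called in the main fit (log2FC -0.99, adjusted p = 0.156, limma), but it was with the replicate block (adjusted p = 0.0248). VIM had 50998 and 66855 normalized counts with siADAR1 #2, below the 105253 and 92977 of siControl, and was not called there. The part of these shifts in the values of the lineage genes was not tested.

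Genes with the profile most like each tested member over the 6 libraries were found by Pearson's r of the log2 values, as a description only. PAX8 was closest to TM7SF3 (r = 0.9995) and CAPG (0.9972), and FOXE1 to PAIP2B and PRKAG2 (0.9923 each). For HHEX they were MT1L (0.9969) and NSDHL (0.9956), and for TG METRNL (0.9929) and HERPUD2 (0.992). TSHR was closest to ENSG00000267053 (0.9951) and PRR16 (0.9875), DIO2 to AMOT (0.9972) and CBLB (0.986), and DUOX2 to FAM193B (0.9833) and PRKAG2-AS1 (0.9832). All these pairs share the same 6 libraries and their depths, and each r is the highest or next highest among 20247 genes over 6 points. None of the nearest genes was itself one of the 9.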

How the data were processed

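Poly(A)+ RNA-seq libraries of Cal62 cells were made with the KAPA mRNA HyperPrep kit and sequenced with 75-bp paired-end reads. Per the authors, adapters were removed with Atropos, gene counts came from featureCounts within bcbio-nextgen (GRCh38), and DESeq2 was used for normalization. The authors also ran Salmon and preferred its gene counts, brought in with tximport, for that step, so whether the counts behind the deposited values came from featureCounts or from rounded Salmon estimates is not settled here, and the reads named here may be either. The values deposited by the authors are log2 values after a variance-stabilizing transformation, read from the values themselves, in which 0.347736 stands for a count of 0. Undoing it gave whole reads within a tolerance of 0.1. These values follow the log2 of the normalized count for abundant genes and compress low ones. The difference between 2 low counts is thus smaller than their log2 ratio. A log2FC compares means of log2 values, so a library at 0 reads can take it past the ratio of the mean counts. For TG with siADAR1 #2 it gave a fold of 7.277, where the mean normalized counts were 16.88 in siControl and 48.76 with siADAR1 #2. The table had 58333 genes, of which 57830 matched GENCODE 44, and 0 columns were left unused.

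Genes with a mean of at least 10 normalized counts were compared with limma 3.58.1 (eBayes with trend, R 4.3.3), two-sided, with Benjamini-Hochberg adjustment over all genes tested, in 1 fit with 3 groups. The steps were tested on simulated data. Replicate numbers 1 and 2 are shared by the groups. The deviations of replicate 2 from replicate 1 correlated at 0.111, 0.13 and 0.15 between the 3 pairs of groups. A fit with the number as a block was therefore also run. It is given for the 9 genes where it changes a call, but not for every list gene, marker or neighbour. The pairing rests on these values alone, since no source says what a number marks. The 9 genes and the lists were chosen with earlier results of these data known, and some genes of the lists are not reported here. Named from each list were at most 4 genes, first those called the same way with both siRNAs, then by smallest adjusted p. For each tested member the 2 genes with the highest r were named, as were overlapping or neighbouring genes that bear on its reads. Genes named beyond this rule, among them ADCY3, ADCY6, ISL1, KLF9, CDH2, DUOXA2, CALCA, PTH and PTPRC, were chosen after their values were seen. Limits from counts of 0 cover counting error only. Alternatives were other filters, scalings, pseudocounts of 1 and 0.5, eBayes settings, voom with TMM factors, a replicate block, smaller fits and each library left out, and 1 filter, at a mean log2 value equal to the log2 of 10, was added after the data were seen.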

Additional observations from a re-analysis of the deposited data

Results flagged for a closer look

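For 3 of the 7 lineage genes tested, the changes with the siRNAs differed from each other by a test of the difference itself (limma, adjusted over 20247 genes, of which 33.7% differed). PAX8 was lower with siADAR1 #2 than with siADAR1 #1 by a log2 difference of -1.736 (adjusted p = 0.00573), a call kept in all 18 other settings. TSHR was higher with siADAR1 #2 by 0.961 (adjusted p = 0.0322), and DIO2 by 2.426 (adjusted p = 0.0301). These 2 calls were less stable, kept in 9 of 18 other settings for TSHR and in 11 of 17 for DIO2, which had 4 to 36 reads per library. In ADAR the siRNAs differed by 0.353 (adjusted p = 0.406). The 3 differences do not rest on the siControl libraries except through the shared estimate of spread. No outlier could be sought, since each group had 2 libraries.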

How the results depend on the processing

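Of 1571 values of single genes under other settings, 1389 kept their direction and their side of the threshold. With siADAR1 #1, the number of lineage genes called was 0 in every setting except the replicate block. There it was 1 (FOXE1, adjusted p = 0.0363, limma), against 20.2% of all genes. With siADAR1 #2 the block called TG (adjusted p = 0.035) beside PAX8 and FOXE1, against 30% of all genes. Over all the genes examined, neighbours and markers included, the block added 21 calls and changed no other call. With single libraries left out, the number called was 1 to 2 with siADAR1 #2 and 1 to 3 between the siRNAs, and PAX8 was among them each time. Without a filter it was 1 between the siRNAs (PAX8). With the average of both siRNA changes it was 2 (PAX8 and FOXE1), where the pooled libraries gave 0. The number of silent genes was 3 with fewer than 10 reads in each siControl library, 3 with a siControl mean under 10 normalized counts, and 1 to 2 with a siControl library left out. The log2FC of HHEX with siADAR1 #2 turned to 0.002 after quantile normalization, and that of TSHR in the pooled comparison, -0.009, turned to 0.08 after median-centring and to 0.023 with voom. With single libraries left out, signs also turned for values that were not called: with siADAR1 #1, PAX8 (-0.533 to 0.02), TG (-1.592 to 3.24) and DIO2 (-1.877 to 0.345), and in the pooled comparison HHEX (-0.023 to 0.158), TG (-0.573 to 4.26), TSHR (-0.197 to 0.242) and DIO2 (-0.663 to 1.558). Median-centring moved the median log2FC of all genes with siADAR1 #1 from -0.029 to 0.113. Over all genes, the calls with siADAR1 #1 went from 3518 to 1478 without a trend, 312 without siControl replicate 1, 1165 without siControl replicate 2 and 1291 without siADAR1 #1 replicate 1. Those with siADAR1 #2 went from 5573 to 3152 without siControl replicate 1 and 3105 without siADAR1 #2 replicate 1, and those of the pooled comparison from 0 to 4 without a trend, 1 with voom and 3601 with the average. The causes were not tested. TG, SLC5A5, DIO2 and DUOX2 had fewer than 60 reads in every library. In siControl, replicates 1 and 2 had 31 and 0 reads of TG, and 25 and 4 of DIO2. How far depth and the spread between replicates limit these genes was not tested.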
